A study of Homo sapiens with 58 samples.

Results

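The last step of a SOX9 titration, from 8.14% to 0.95% of the untreated SOX9 level, was described by ATAC-seq, which reads open chromatin through insertions of the Tn5 transposase. The cells were cranial neural crest cells (CNCCs), derived in culture from the established human embryonic stem cell line H9. SOX9 carried an FKBP12-F36V degradation tag at its endogenous gene, through which the small molecule dTAGV-1 brings the VHL ubiquitin ligase to the protein. All compared samples were SOX9-tagged CNCCs treated for 48 h, 7 with 16 nM dTAGV-1 (8.14% SOX9) and 7 with 500 nM (0.95% SOX9), and no sample without dTAGV-1 entered this comparison. These 14 samples were taken by concentration from the 58 of the series. Each concentration held the same 7 replicates, a replicate being a clone and a differentiation: 4 of clone S9CC13 and 3 of clone S9CC47, 2 edited lines that each descend from a single cell. The features were 151457 regulatory elements (REs), reproducible open regions, mostly a peak summit with 250 bp on either side, and the 14 samples held 22.9 M to 65.5 M counts in them. The values are CPM, counts scaled to a common library size by TMM, and a log2 difference is always 500 nM against 16 nM unless another pair is named, so that a negative value is a loss of accessibility with the last of SOX9.

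SOX9 is an HMG-box transcription factor that binds the minor groove, bends DNA and recognises short motifs around ACAAT. It can bind as a dimer on a pair of cores that face each other, a mode known from cartilage enhancers, and in the neural crest it acts early in specification and later in the chondrogenic fate of cranial derivatives. Loss of 1 copy of the gene causes campomelic dysplasia, and changes in its distant enhancers are found in Pierre Robin sequence, in which the lower jaw is small.

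The sequences below come from REs with the largest falls, from REs with facing cores that had the smallest p, and from BMP7, whose facing-core RE is described below, and show how the SOX cores sit in them. Each is hg38, plus strand, read 5′ to 3′, with the SOX cores (ACAATG or ACAAAG, or their reverse complements CATTGT and CTTTGT) in capitals and 20 bases on either side. The first 5 hold a facing pair, a core followed by a reverse complement after a gap of 3 to 5 bp. The last 3 hold cores without such a pair.
RASL11B RE, chr4:52873346-52873402, gap of 5 bp: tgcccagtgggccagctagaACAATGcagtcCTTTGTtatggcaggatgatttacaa
GCNT1 RE, chr9:76473169-76473224, gap of 4 bp: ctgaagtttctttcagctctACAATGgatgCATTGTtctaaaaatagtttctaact
ST6GALNAC3 RE, chr1:76125560-76125615, gap of 4 bp: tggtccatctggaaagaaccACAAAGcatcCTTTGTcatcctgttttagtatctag
UTP25 RE, chr1:209870594-209870648, gap of 3 bp: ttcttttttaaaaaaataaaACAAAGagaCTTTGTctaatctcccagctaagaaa
BMP7 RE, chr20:57241807-57241862, gap of 4 bp: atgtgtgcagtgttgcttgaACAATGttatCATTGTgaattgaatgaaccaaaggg
ABLIM1 RE, chr10:114489574-114489619: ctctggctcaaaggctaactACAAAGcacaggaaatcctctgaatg
SEPTIN9 RE, chr17:77394767-77394812: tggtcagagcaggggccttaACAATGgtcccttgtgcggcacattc
KL RE, chr13:32962589-32962640: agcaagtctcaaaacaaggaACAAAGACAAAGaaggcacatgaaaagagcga
Outside the gene lists an RE is named after the protein-coding gene with the nearest start site, which need not be the gene it acts on.

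Removal of the residual 8.14% of SOX9 lowered 1534 REs and raised 399 (edgeR's quasi-likelihood test with differentiation batch as covariate, Benjamini-Hochberg adjusted p under 0.05 over all 151457 REs). The lower REs are 1.01% of all REs and the higher REs 0.263%. Lower REs had a median log2 difference of -0.53, and 138 of the 1534 fell 2-fold or more. Higher REs had a median of 0.47, and 3 of the 399 rose 2-fold or more. All 7 replicates were lower at 1410 of the 1534 lower REs, and all 7 were higher at 339 of the 399 higher REs. Accessibility was not abolished at most of the lower REs: the mean CPM at 500 nM was under 10% of that at 0 nM for 89 of them, between 10% and 25% for 310, between 25% and 50% for 516, and at least 50% for 619. With the replicate as a block in place of the batch, the fit called 6522 lower REs (4.31%) and 5791 higher REs (3.82%), among them all 1534 and all 399 REs of the batch fit in the same directions. DESeq2 called 2028 lower (1.34%) and 725 higher (0.479%). Leaving out 1 replicate at a time gave between 692 lower REs, without S9CC13_R14, and 4801, without S9CC13_R6, and between 97 higher REs, without S9CC13_R13, and 3691, without S9CC13_R6. With neither batch nor block in the fit, 43 REs were lower and 0 higher (4138 of either direction at an unadjusted p under 0.05).

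The 8 REs with the largest falls kept their calls under each of the 17 alternatives tried for them. They were named only among REs lower in all 7 replicates with a mean of at least 2 CPM at 16 nM. Only those at ABLIM1 and SEPTIN9 also had a mean of at least 2 CPM at 500 nM. The largest fall was at an RE over untranslated sequence of SCFD2 (chr4:52873136-52873636), nearest to RASL11B, a RAS-like small GTPase. Its CPM ran from 1.38 through a median of 2.39 to 3.55 at 16 nM, and from 0.318 through 0.457 to 0.833 at 500 nM. The groups did not overlap, and the RE fell by 2.27 ± 0.21 on the log2 scale (SE, n = 7 a side, edgeR adjusted p = 4.07e-06). Of its mean signal at 0 nM, 19.4% was left at 16 nM and 3.85% at 500 nM.

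An intronic RE of ABLIM1, an actin-binding LIM protein, fell by 2.05 ± 0.17 (SE, n = 7 a side, edgeR adjusted p = 1.03e-06). Its CPM was 6.45, 11.1 and 15.5 (lowest, median, highest) at 16 nM and 1.26, 2.88 and 3.38 at 500 nM. The RE in an intron of GCNT1, an enzyme of O-glycan branching, went from 2.48, 4.51 and 5.78 CPM to 0.533, 0.917 and 1.49. Neither RE had overlapping groups. GCNT1 fell by 2.04 ± 0.19 (edgeR adjusted p = 6.67e-06). The most open of the 8 was an intronic RE of SEPTIN9, a cytoskeletal septin, with 11.0, 20.7 and 26.6 CPM at 16 nM and 3.23, 6.19 and 9.03 CPM at 500 nM. At 0 nM its mean was 55.9 CPM, so that 36.4% was left at 16 nM and 10.3% at 500 nM. Near KL, which encodes the FGF23 co-receptor klotho, an intergenic RE went from 3.78, 6.87 and 14.6 CPM to a median of 1.93 and a highest of 2.97 CPM. The other 3, in an intron of the receptor phosphatase gene PTPRJ, over a coding exon of the tyrosine sulfation enzyme TPST1 and in an intergenic stretch nearest to FAM204A, had log2 differences of -1.82, -1.75 and -1.81. Only at PTPRJ did the groups overlap, with a lowest value of 0.939 CPM at 16 nM and a highest of 1.00 CPM at 500 nM. The rule that named the 8 on these same samples favours such separation, so it is a description. Each of the 8 had at least 1 SOX core, each was lower after 3 h of 500 nM dTAGV-1 in the separate time course, with log2 differences against vehicle from -2.34 at SEPTIN9 to -3.49 at GCNT1, and each was lower at 5 nM than at 0 nM. In WT cells, which carry no tag, their log2 differences between 500 and 0 nM at 48 h lay between -0.07 and 0.25 with adjusted p of at least 0.13 (edgeR, n = 2 a side).

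**Figure D1:**
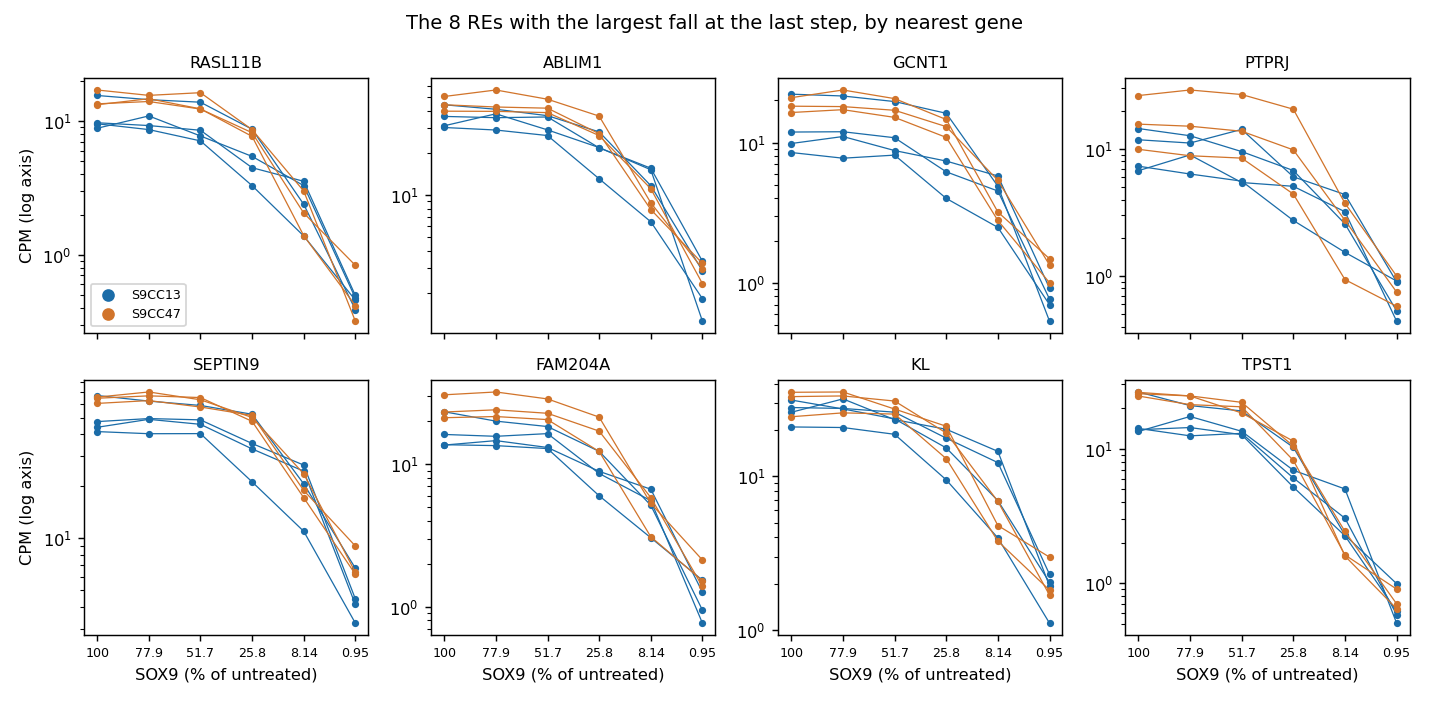
CPM (log axis) of the 8 REs with the largest falls at the last step against SOX9 level (% of untreated), 1 line a replicate, in blue for S9CC13 and orange for S9CC47. Between 8.14% and 0.95% every line falls in every panel, which the rule for naming these REs required. The panels differ in how much is lost before 8.14%.

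Facing SOX cores were found in the central window (the middle base and 250 bp on either side) of 298 REs, 0.197% of all. Of these, 34 (11.4%) were lower at the last step, against 1.01% of all REs, and 0 were higher. The same pair turned outward, at the same gaps, was in 111 REs, of which 2 (1.80%) were lower. The 34 lower REs with a facing pair were all among the 239 that were also lower at 3 h, 14.2% of those. Of all REs lower at 3 h, with or without a pair, 8.19% were lower at the last step. Under the replicate block 18.5% of the 298 were lower, beside 4.31% of all REs. Under that block 22.6% of the 239 were lower, little above the 20.1% of all REs lower at 3 h. The median log2 difference over all 298 was -0.23 ± 0.16 as a mean over replicates (SD, n = 7), below 0 in 6 of 7 replicates. Among REs lower at 3 h that hold a facing pair, the smallest p belonged to an intronic RE of ST6GALNAC3, a sialyltransferase gene, with 19.4, 26.6 and 46.0 CPM at 16 nM and 10.8, 13.5 and 20.8 CPM at 500 nM. It fell by 0.87 ± 0.08 (SE, n = 7 a side, edgeR adjusted p = 3.41e-06), and was lower in 7 of 7 replicates, while the groups overlapped. The intergenic RE nearest to UTP25 had 7.63, 17.6 and 24.9 CPM at 16 nM and 5.15, 8.73 and 11.4 CPM at 500 nM. It fell by 1.03 ± 0.10 (edgeR adjusted p = 1.18e-05), and the RASL11B and GCNT1 REs above completed the set.

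REs that need SOX9 were next chosen on libraries that the last step does not use. The time course holds 6 SOX9-tagged samples in 3 groups of 2 (vehicle, and 3 h or 24 h of 500 nM dTAGV-1), in which 11252 REs (7.43%) were lower at 3 h, 5211 (3.44%) were lower at 24 h and not at 3 h, and 7116 (4.7%) were higher at 24 h. Of the REs lower at 3 h, 922 (8.19%) were lower again at the last step and 6 were higher. Of those lower at 24 h only, 321 (6.16%) were lower and 0 higher. Of those higher at 24 h, 1 was lower and 184 (2.59%) were higher. Seen from the other side, REs lower at 3 h made up 60.1% of all 1534 lower REs, and REs higher at 24 h made up 46.1% of the 399 higher REs. Among the 6522 lower REs of the replicate block, REs lower at 3 h made up 34.7%. Of the 6422 REs (4.24%) lower at 5 nM (25.8% SOX9) than at 0 nM in the titration, 823 (12.8%) were lower and 0 higher. Under the replicate block the shares lower were 20.1%, 23.3% and 27.3% for the classes of 3 h, 24 h only and 5 nM, beside 4.31% of all REs.

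In the classes as a whole, called or not, the last step was a loss in each replicate. The median log2 difference over the REs lower at 3 h was -0.20 ± 0.07 (mean over replicates, SD, n = 7), from -0.28 to -0.08. REs lower at 24 h only had -0.21 ± 0.07, from -0.30 to -0.11. REs lower at 5 nM had -0.27 ± 0.14, from -0.45 to -0.03, with the value nearest 0 in S9CC47_R5. REs higher at 24 h had 0.12 ± 0.06, above 0 in all 7 replicates.

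**Figure D2:**
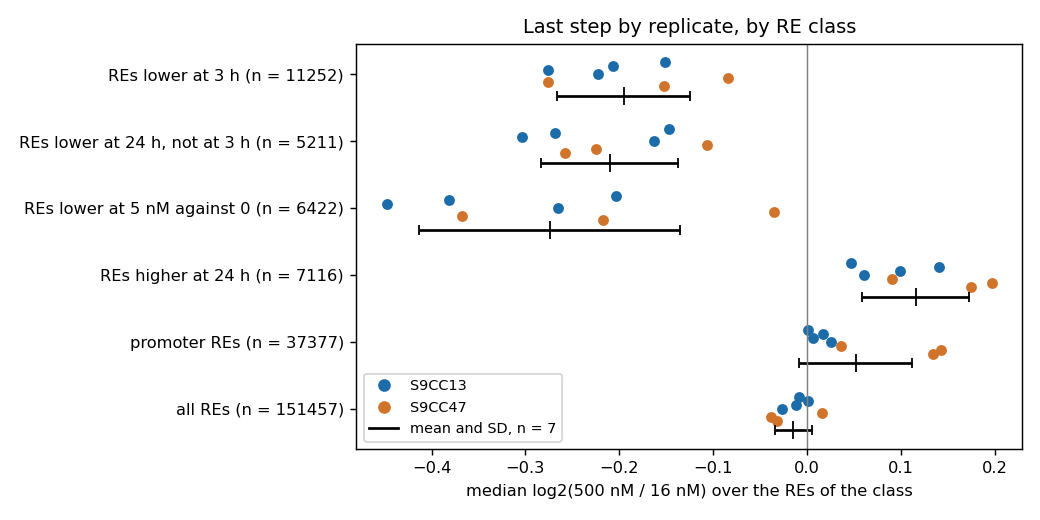
Median log2 difference (500 nM against 16 nM) over the REs of each class, 1 point a replicate, in blue for S9CC13 and orange for S9CC47, with the mean and SD (n = 7) below each row. The 3 classes lower in other libraries lie below 0 in every replicate, the REs higher at 24 h lie above 0, and the promoter REs of S9CC47_R6 and S9CC47_R8 stand above those of the others.

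The share of REs still losing accessibility at the last step was higher for 3 h falls of 2 or more than for smaller ones, with less signal left. Over REs lower at 3 h with at least 5 CPM at 0 nM, the 89 REs that fell by 3 or more on the log2 scale at 3 h had a median of 13.8% of their 0 nM signal left at 16 nM and 7.20% at 500 nM, and 37 of them (41.6%) were lower. For the 417 REs with a fall of 2 to 3, 25.9% was left at 16 nM and 15.9% at 500 nM, and 196 (47%) were lower. A fall of 1 to 2 was seen at 1294 REs, with 48.0% and 37.2% left and 359 (27.7%) lower. The 2862 REs with a fall under 1 had 78.8% and 70.9% left, and 267 (9.33%) were lower. The median CPM at 0 nM of these bins was 9.64, 10.3, 10.1 and 12.6. REs lower at 3 h that were also lower at 5 nM were lower at the last step in 722 of 2440 cases (29.6%), and those not called at 5 nM in 137 of 2222 (6.17%).

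Across the titration, the 1534 lower REs held most of their signal down to 51.7% SOX9. Their median level was 93.9% ± 4.3 of that at 0 nM (mean over replicates, SD, n = 7) at 51.7% SOX9, 77.2% ± 6.6 at 25.8%, 62.2% ± 8.9 at 8.14% and 42.7% ± 2.8 at 0.95%. The REs were chosen from the last of these, so the final drop is a description. Of the whole loss between 0 and 500 nM, the last step took a median of 34.4%, and it took over 50% at 512 of the 1526 REs whose mean was lower at 500 nM than at 0 nM. To compare the last step with all that came before, the contrast of the 500 nM level minus 2 times the 16 nM level plus the 0 nM level was tested on the log2 scale over 21 samples. It is the difference at the last step minus the difference from 100% to 8.14%, so it is below 0 where the last step falls more than the earlier change did, and also where a rise came first. Over all REs, 1903 (1.26%) were below 0 and 3015 (1.99%) above. The replicate block gave 6218 (4.11%) and 8081 (5.34%), leaving out 1 replicate gave 293 to 3076 and 1008 to 5792, and with neither batch nor block 1 and 311 remained. Because the contrast shares the 16 and 500 nM samples with the last step, the split that follows is a description.

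Of the 1534 lower REs, 283 (18.4%) had a contrast above 0, 72 (4.69%) a contrast below 0, and 1179 (76.9%) neither. The 283 had lost most of their signal before the last step: 31.9% ± 10.1 was left at 16 nM and 19.7% ± 3.5 at 500 nM. All but 1 of them, 282, were lower at 3 h, 80.2% held a SOX core and 3.89% a facing pair. The 1179 went from 68.7% ± 8.3 to 47.7% ± 2.6, and 53.9% of them were lower at 3 h. The 72 had a median level of 115% ± 7.1 of the untreated level at 16 nM and 85.1% ± 6.9 at 500 nM. Their mean at 16 nM was above that at 0 nM in 68 cases, and 23 were called higher at 16 nM than at 0 nM. The rise up to 16 nM was larger than the fall after it at 7 of them on the log2 scale. A high value at 16 nM both lifts that level and deepens the later fall, so the selection favours this shape. Of the 72, 5 (6.94%) were lower at 3 h, close to the 7.43% of all REs.

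**Figure D3:**
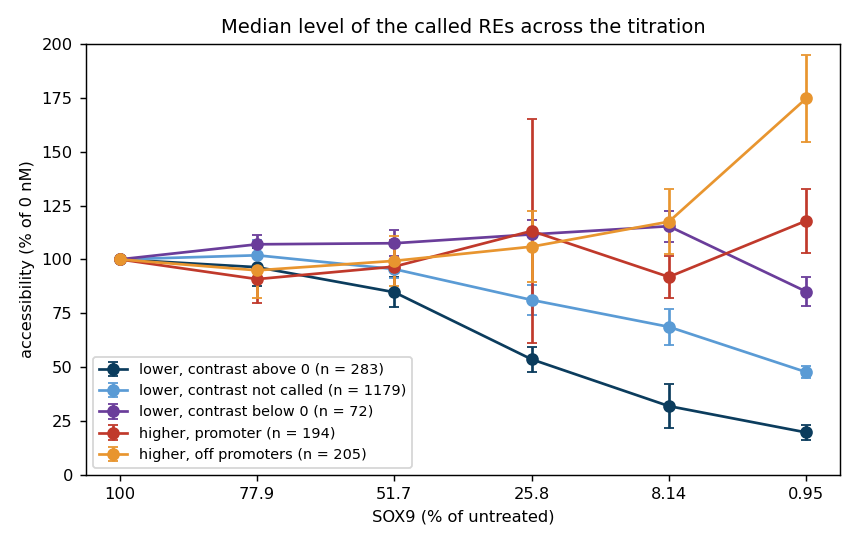
Median accessibility as a share of the 0 nM level (%) against SOX9 level (% of untreated) for the lower REs, split by the contrast of the last step with the change before it, and for the higher REs, split by promoter. Points are means over 7 replicates and bars their SD. The 72 lower REs with a contrast below 0 sit at 115% at 8.14% SOX9 and at 85.1% at 0.95%, and the higher REs off promoters at 117.5% and 175%.

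The 6 REs with the most negative contrast had means of 2.49 to 9.59 CPM at 16 nM, and the 16 and 500 nM groups overlapped at each of them. In an intron of ASAP2, an RE nearest to ITGB1BP1 had a mean of 1.57 CPM without dTAGV-1, 2.49 ± 1.25 CPM in the 16 nM samples and 1.56 ± 1.14 CPM in the 500 nM samples (SD, n = 7). Its contrast was -1.50 (edgeR adjusted p = 0.0025). An RE nearest to EN2, a homeobox gene of midbrain and hindbrain, had means of 1.52, 2.72 and 1.82 CPM, and a GAS7 RE over a coding exon had 6.01, 9.59 and 7.30 CPM. For the remaining 3, nearest to NOVA1, LCOR and RAB11FIP2, the log2 difference at the last step was -0.51, -0.47 and -0.72, after 0.89, 0.82 and 0.38 from 0 to 16 nM. None of the 6 held a facing pair, and 2 of them, at ITGB1BP1 and EN2, held no SOX core in the central window. None was lower at 3 h, at the adjusted p of 0.05. Leaving out S9CC13_R14 ended the last-step call at all 6, with log2 differences then between -0.70 and -0.40.

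Lower REs lay away from start sites. An RE within 1000 bp of any annotated transcript start was counted as a promoter RE, and 175 of the lower REs (11.4%) were of that kind, against 24.7% of all REs. By position against protein-coding genes, 47.4% of the lower REs were intergenic and 44.3% intronic, and the median distance to the nearest protein-coding start site was 44765 bp, against 28434 bp for all REs. They were also more open: their median was 13.3 CPM at 0 nM, 7.33 at 16 nM and 4.93 at 500 nM, where all REs had 2.44, 2.43 and 2.37. The test has more power at such REs, which a comparison with all REs does not take into account.

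Motifs were counted in the central window on both strands. A SOX core (ACAATG or ACAAAG) was in 67.0% of lower REs, 31.3% of higher REs and 45.7% of all. The E-box CATCTG, of the kind bound by TWIST1 and its partners, was in 57.7% of lower, 25.8% of higher and 41.2% of all REs. The NR2F half-site AGGTCA was in 43.2%, 28.8% and 33.2% of them. The TEAD motif GGAATG was in 37.9%, 21.3% and 30.2%. The AP-1 motif TGANTCA, which FOS and JUN dimers bind, went the other way, with 10.4% of lower, 43.6% of higher and 15.0% of all REs. The TFAP2 motif GCCNNNGGC was in 23.7%, 43.4% and 24.6%, and the homeodomain motif TAATTA in 12.2%, 10.5% and 13.1%. Read in the other direction, 1.48% of REs with a SOX core were lower, 0.616% of those without one, and 2.29% of the 5068 with 3 or more cores. A core was not needed for a call, since 507 of the 1534 lower REs held none. Among the REs called with the replicate block, a SOX core was in 57.1% of the lower and 26.2% of the higher. The AP-1 motif was in 11.2% of the lower and 22.4% of the higher there, and in 39.65% of the higher with GC-content offsets added.

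Motifs were also compared within the REs lower at 3 h. Of those with at least 5 CPM at 0 nM, 859 were lower at the last step and 3803 were not. A SOX core was in 80.3% of the 859 and in 68.5% of the 3803, a facing pair in 3.73% and 1.34%, the E-box in 54.5% and 48.6%, the AP-1 motif in 10.5% and 19.0%, and the TFAP2 motif in 22.4% and 21.4%. The 859 were more open at 0 nM, with a median of 17.6 against 10.5 CPM, and almost the same at 16 nM, with 7.14 CPM in both. Their median log2 difference at 3 h was -1.40, against -0.73 for the 3803.

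**Figure D4:**
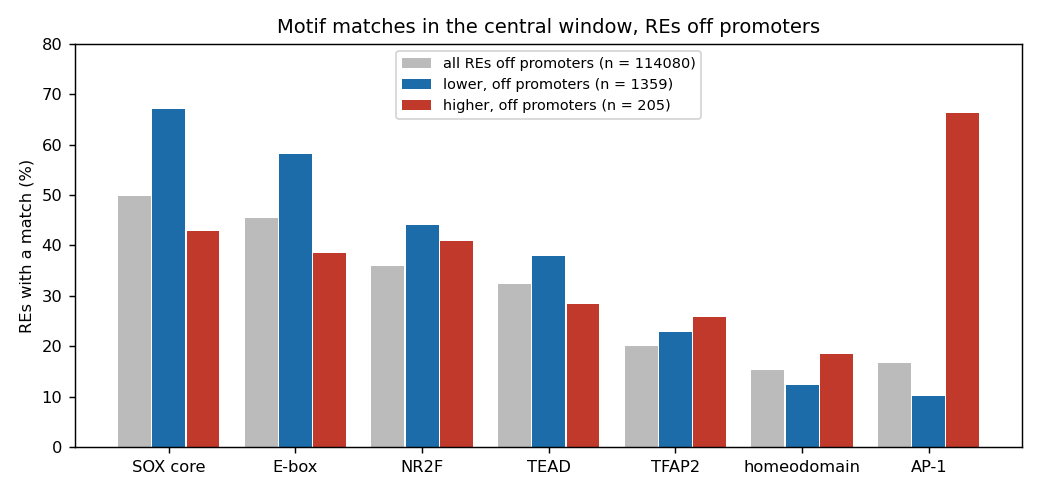
Share of REs (%) with a motif match in the central window, off promoters, for all REs, lower REs and higher REs at the last step. Among these distal REs the AP-1 motif is in 66.3% of the higher, 10.2% of the lower and 16.6% of all, and the SOX core in 42.9%, 67.1% and 49.8%.

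In the batch fit about as many of the 399 higher REs lay at promoters as away from them. Under the replicate block 67.0% of the 5791 higher REs were promoter REs, and 39.8% of the 3395 with GC-content offsets added. The values that follow are of the 399. There were 194 promoter REs (48.6%) with a median GC content of 71.7%, and 205 others with 48.1%, where all REs had 48.1%. Off promoters, 66.3% of the higher REs held the AP-1 motif, against 16.6% of all distal REs. At promoters the higher REs had a median level of 91.9% ± 9.8 of that at 0 nM at 8.14% SOX9 and 118% ± 14.9 at 0.95% (mean over replicates, SD, n = 7). Off promoters they were at 117.5% ± 15.2 and then at 175% ± 20.4, with a median log2 difference of 0.21 from 0 to 16 nM, where the promoter REs had -0.13. With GC-content offsets added to the replicate block, 298 of the 399 stayed called.

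The largest rise by the naming rule was at an intergenic RE nearest to GAP43, a growth-cone protein gene, whose sequence holds 3 AP-1 motifs within 89 bases, in capitals here (hg38, plus strand).
GAP43 RE, chr3:115790921-115791009: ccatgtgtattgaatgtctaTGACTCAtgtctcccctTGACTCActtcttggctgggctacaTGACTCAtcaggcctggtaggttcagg
Its CPM was 0.424, 0.533 and 4.02 at 16 nM and 0.539, 1.23 and 5.33 at 500 nM, and it rose by 1.02 ± 0.18 (SE, n = 7 a side, edgeR adjusted p = 0.0049). The groups overlapped, and the highest value at both concentrations came from S9CC13_R10, as it did at both concentrations for the REs at SMIM14, GUCA1C, SLC35F2 and SMPD1. These 4 had log2 differences of 0.89, 0.83, 0.81 and 0.79 and each held at least 1 AP-1 motif. The RE in an intron of FRAS1, an extracellular matrix gene of the embryonic basement membrane, held none. It had 1.57, 2.55 and 3.88 CPM at 16 nM and 3.13, 4.63 and 7.56 CPM at 500 nM, and rose by 0.88 ± 0.14 (edgeR adjusted p = 0.0017). The 6 were named only among REs higher in all 7 replicates with a mean of at least 2 CPM in one group, and all but FRAS1 reached 2 CPM only at 500 nM. The SMIM14 call was lost without S9CC13_R13, S9CC13_R14 or S9CC47_R5, and the GUCA1C call without S9CC13_R13 or S9CC13_R14, with log2 differences between 0.74 and 0.84 among these.

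Cartilage, crest, signalling and stress genes were read as lists, each beside 1.01% of all REs lower and 0.263% higher, or 4.31% and 3.82% under the replicate block. An RE was given to a gene if it overlapped the gene or lay within 50 kb of it. Another gene had the nearest start site for the REs named below after WWP2 (CLEC18A), S100B (PRMT2), MIA (EGLN2), FOSB (ERCC1) and ATF4 (MIEF1). Under the block 10.4% of all promoter REs were higher, and 3.61% with GC-content offsets added. The shares of the lists were not counted with those offsets, so the part of GC content in them was not tested. Of 211 REs at 16 cartilage matrix genes, 1 was lower and 2 were higher (0.474% and 0.948%), with a median log2 difference of 0.02, and 3.32% and 4.74% under the block. At MATN1, a matrilin gene of cartilage, an RE fell by 0.41 (9.29 ± 3.17 CPM at 500 nM, 12.3 ± 3.4 at 16 nM, SD, n = 7), while REs over the start of ACAN, the aggrecan gene, and near COMP rose by 0.46 and 0.40. Of 410 REs at SOX partners and chondrogenic regulators, 2 were lower and 2 higher (0.488% each, and 3.90% and 4.39% under the block). The lower 2 were near WWP2, a ubiquitin ligase gene that hosts a cartilage microRNA (log2 difference -0.55, edgeR adjusted p = 0.0035), and over untranslated sequence of BMPR1B, a BMP receptor of cartilage condensations (-0.95, edgeR adjusted p = 0.015). At BMPR1B 20.4% of the untreated mean was left at 16 nM and 10.4% at 500 nM. An RE at the RUNX1 start rose by 0.58 and one at ZNF219, which encodes a zinc finger protein, by 0.69 (edgeR adjusted p = 0.018), the latter named after its value was seen.

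Of 418 REs at 25 cranial crest transcription factors, 3 were lower and 3 higher (0.718% each), and under the block 16 (3.83%) and 37 (8.85%). The 3 lower REs were all at PAX7, a crest specifier, and the strongest, in an intron, had 23.5, 32.3 and 39.8 CPM at 16 nM and 15.5, 26.9 and 32.8 CPM at 500 nM, in overlapping groups (log2 difference -0.42, edgeR adjusted p = 0.0022). The 3 higher REs were at MSX1 (2) and MSX2 (1), homeobox genes downstream of BMP signalling, and their strongest rose by 0.41 and 0.51. Of 119 REs at 10 glial genes, 1 (0.840%) was lower and 0 higher (5 each under the block). It was an intergenic RE near S100B that fell by 0.52 and had lost most of its signal before, with means of 21.2, 4.17 and 2.91 CPM at 0, 16 and 500 nM. At MIA, whose best RE lies over the EGLN2 start, the log2 difference was 0.43 (edgeR adjusted p = 0.13, and 0.014 under the replicate block).

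TGF-beta and BMP signalling had the highest share lower of the 8 lists. Of 353 REs at 21 of its genes, 10 (2.83%) were lower and 2 (0.567%) higher, beside 1.01% and 0.263% of all REs, and the median log2 difference over the 353 was -0.01. The replicate block gave 31 lower (8.78%) and 23 higher (6.52%). The lower REs belonged to 6 genes, 5 of them to BMP7, a BMP ligand. The BMP7 intronic RE whose facing cores are printed above had 24.3, 44.3 and 55.7 CPM at 16 nM and 12.7, 25.0 and 34.6 CPM at 500 nM, and fell by 0.83 ± 0.10 (SE, n = 7 a side, edgeR adjusted p = 1.84e-04). Its mean at 0 nM was 71.7 CPM, 60.1% of which was left at 16 nM and 34.4% at 500 nM. An intronic RE of TGFB2, a TGF-beta ligand, fell by 0.78 from 1.79, 2.75 and 3.90 CPM to 0.699, 1.67 and 2.46 CPM, and one of the co-receptor gene TGFBR3 by 0.40. GREM1 and ID3 had 1 lower RE each, and TGFBR2 the last.

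Stress and off-target lists were checked as well. At AP-1 and YAP targets 1 of 273 REs was lower (TEAD1, -0.36) and 1 higher (near FOSB, 0.50), 0.366% each, and an ATF3 intronic RE was at 0.48 with an adjusted p of 0.058. Under the replicate block 4 of the 273 (1.47%) were lower and 31 (11.4%) higher. HIF targets were listed because dTAGV-1 recruits VHL, which also degrades HIF subunits. Of 242 REs there 1 was lower (P4HA2, -0.74) and 2 were higher, in an intron of PFKFB3, a glycolytic regulator (0.49), and over the BNIP3 start (0.35), with a median of 0.06 over the list, 0.413% lower and 0.826% higher. Under the block 11 (4.55%) were lower and 23 (9.50%) higher. At proteotoxic and oxidative stress genes 3 of 199 REs were lower and 1 higher (1.51% and 0.503%, and 2.01% and 8.04% under the block), and the 3 best, near ATF4, CHAC1 and TXNRD1, fell by 0.63, 0.41 and 0.36. Most of the list calls lay close to the threshold: leaving out S9CC13_R13, S9CC13_R14 or S9CC47_R8 ended the calls of 13, 12 and 15 of the 21 list REs that were called, and GC-content offsets with the replicate block ended those at COMP (log2 difference 0.21, adjusted p = 0.16) and BNIP3 (0.15, adjusted p = 0.20).

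The lower REs were spread over 1184 of the 17600 genes nearest to any RE, 941 of them with a single lower RE. The counts below stand beside 1.01% of all REs lower, or 4.31% under the replicate block, and are the highest among all these genes. The loci with the most by nearest start site, read off after the values were known, were PKNOX2, a TALE homeobox gene, with 8 of its 40 REs lower and log2 differences from -0.69 to -0.33, and SULF2, an extracellular heparan sulfate sulfatase gene, with 7 of 67, from -1.65 to -0.46. Beside SULF2 on chromosome 20, PREX1 had 6 of 81, from -1.61 to -0.41. CCDC88C had 6 of 26 within 14.4 kb, SEMA5A, an axon guidance semaphorin gene, 6 of 63, and ADGRL2 6 of 118. MYCN had 5 of 70, BMF 5 of 13 and FRMD4A 5 of 85. BMP7, FRMD3, GLI2, KLHL29, LNX1, NTN1, SMOC1, ST3GAL4 and TCF7L2 had 4 each, and TCF7L2 also 1 higher RE. Another 4, nearest to SLC39A11 and all lower at 3 h, lay 502 to 546 kb downstream of the SOX9 start, with log2 differences from -1.36 to -0.51. By contrast, no gene was nearest to more than 2 higher REs.

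Between clones the losses were shared. REs called lower in S9CC13 alone (3545, 2.34% of all) were below 0 in S9CC47 in 3375 cases (95.2%), with a median of -0.31 there, and 1422 of them (40.1%) were called lower in S9CC47 as well, where 4001 REs (2.64%) were called lower in all and 54.9% of all REs were below 0. The reverse choice gave 3709 of 4001 (92.7%) below 0 in S9CC13, with a median of -0.33, where 48.8% of all REs were below 0. For gains, 1818 of the 2205 REs called higher in S9CC13 (1.46% of all) were above 0 in S9CC47 (82.4%, beside 45.1% of all REs), with a median of 0.17 there, and 337 (15.3%) were called. Of the 8516 REs called higher in S9CC47 (5.62% of all), 6627 were above 0 in S9CC13 (77.8%, beside 51.2% of all REs), with a median of 0.07 there, and the same 337 (3.96%) were called. Tested as an interaction of clone and dose with the replicate as a block, 2882 REs (1.9%) had a higher step in S9CC47 and 138 (0.0911%) a lower one. The 2882 were promoter REs in 86.0% of cases with a median GC content of 67.3%, and 25 of them are lower REs of the last step. Their median log2 difference was 0.31, 0.62 and 0.60 in S9CC47_R5, S9CC47_R6 and S9CC47_R8, and between -0.03 and 0.06 in the 4 replicates of S9CC13. Of the 138, 51.4% held the AP-1 motif. Clone cannot be told apart from differentiation here except in batch R6, in which both clones were differentiated.

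GC content moved with the gains in the same replicates. Over the highest of 10 equal bins of REs by GC content (median 68.9%), the median log2 difference was 0.36 in S9CC47_R6 and 0.40 in S9CC47_R8, 0.16 in S9CC47_R5, 0.13 in S9CC13_R6, and 0.04, 0.02 and -0.0029 in S9CC13_R10, S9CC13_R13 and S9CC13_R14. Over the lowest bin (36.1%) it lay between -0.11 and 0.07. With GC-content offsets added to the replicate block, the share of promoter REs called higher went from 10.4% to 3.61%, and that of other REs from 1.68% to 1.79%. The lower REs had a median GC content of 49.1%, and all 1534 stayed called with GC-content offsets added to the replicate block. Their median log2 difference ran from -0.82 in S9CC13_R14 to -0.42 in S9CC47_R8. They were chosen on these same samples, so its sign in each of the 7 replicates is a description.

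**Figure D5:**
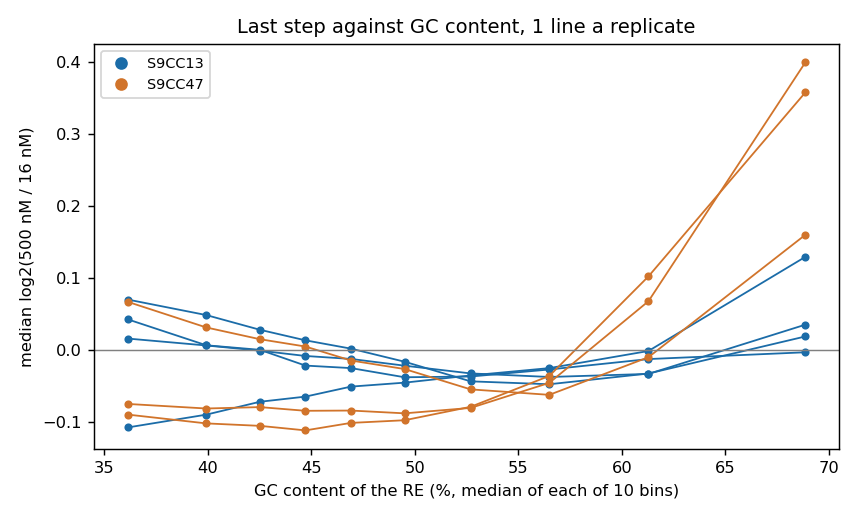
Median log2 difference (500 nM against 16 nM) in 10 equal bins of all REs by GC content (%, median of the bin), 1 line a replicate, in blue for S9CC13 and orange for S9CC47. At a GC content of 68.9% S9CC47_R8 and S9CC47_R6 reach 0.40 and 0.36, while 3 replicates of S9CC13 stay between -0.0029 and 0.04.

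WT cells served as the control for the compound. In 4 WT samples at 48 h, 500 against 0 nM dTAGV-1 called 459 REs (0.303%) with batch as covariate, and 0 with DESeq2 (1214 at an unadjusted p under 0.05) or without the batch (383). Of the 1534 lower REs, 32 (2.09%) were among the 459, 13 lower and 19 higher. The median WT log2 difference was 0.02 over the lower REs and 0.06 over the higher REs. The SOX9 percentages are a single value per concentration, the same for all 7 replicates, and the study's methods define SOX9 dosage by flow cytometry. The ATAC-seq counts themselves do not measure the protein. The RE over the SOX9 start (chr17:72119993-72121187) was open at both concentrations, with 37.9, 48.1 and 57.5 CPM at 16 nM and 43.1, 51.1 and 54.7 CPM at 500 nM, in overlapping groups and with a log2 difference of 0.10 ± 0.06 (SE, n = 7 a side, edgeR adjusted p = 0.49).

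The cells kept open promoters of cranial crest and mesenchyme genes. All 8 markers of that list had a promoter RE, the most open of each at 28.2 to 129 CPM per kb at 16 nM and 31.8 to 129 at 500 nM, and 0 of the 19 REs were called. Pluripotency markers had 4 of 6 genes with a promoter RE, at a median of 5.14 and 5.09 CPM per kb, with none at NANOG or ZFP42. For neural, endothelial, smooth muscle and epithelial markers the medians were 16.6, 13.7, 19.0 and 10.6 CPM per kb at 16 nM and 18.3, 15.1, 18.6 and 12.1 at 500 nM. Of 5 melanocyte markers only 2 had a promoter RE, with none at TYR, DCT or TYRP1. MITF was at 44.8 and 47.8 CPM per kb, below the crest list's medians of 62.7 and 62.4. PMEL was above them at 217.2 and 227.5, so that the median of these 2 was 131 and 138. Of the 47 promoter REs on these 6 lists 0 were called. Over all promoter REs 0.468% were lower and 0.519% higher, so 0 calls among 19 or 47 REs is close to the general share. A change in the mix of cells and a change within cells cannot be told apart in bulk samples. At the threshold, the last lower RE inside it, in an intron of KIAA1614, had 11.9, 26.2 and 52.7 CPM at 16 nM and 9.77, 22.3 and 43.2 CPM at 500 nM (log2 difference -0.27), and the first RE outside, nearest to WDR11, had 2.04, 4.11 and 8.22 CPM and 4.31, 6.62 and 8.11 CPM (0.50).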

How the data were processed

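ATAC-seq counts of 58 samples were used, of which 14 (SOX9-tagged CNCCs after 48 h at 16 or 500 nM dTAGV-1) enter the comparison of the last step. The deposited table holds raw counts, whole numbers of reads per RE and sample. According to the study's methods, the authors aligned read pairs to hg38 and merged reproducible peak summits, extended by 250 bp, into one set of REs, and the submitters' processing notes name Bowtie2 2.4.1, SAMtools 1.10 and MACS2 2.2.7.1. All REs were counted in all samples without pooling, so no value depends on peak calls in single samples. 0 columns were left unused. Groups came from sample titles, since for S9CC13_R14 the concentration labels of the 0 and 0.5 nM samples are the other way round, and the column names of one time-course differentiation give another clone than its titles.

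edgeR 4.0.16 (R 4.3.3) fitted each comparison with TMM scaling, no filter on low counts and, as in the study's methods, differentiation batch as covariate. Significance was an adjusted p under 0.05 (Benjamini-Hochberg) over all 151457 REs. CPM values use the same scaling, and log2 values per replicate a prior count of 2. Replicates paired across concentrations: deviations of a replicate at 16 nM correlated with those of its own 500 nM sample at 0.61 to 0.90 over 76310 REs, always more than with any other, and titles name the shared clone and differentiation. Differentiations of 2 clones are separate cultures, so p-values measure the spread over cultures of 2 edited lines. In the batch fit both clones of batch R6 share 1 batch term, so the difference between their baselines adds to that spread. No 2 of the 14 libraries agreed within sampling noise. Scripts were tested on simulated counts and planted motifs.

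Named REs were the 8 largest falls and 6 largest rises at the last step (all 7 replicates, at least 2 CPM), the 6 most negative contrasts by the same limits, the 4 smallest p among REs lower at 3 h with facing cores, the best REs of 3 genes per gene list, the RE over the SOX9 start and the neighbours of the threshold. REs of chromosome 8 were not named. The result of 1 named RE is not reported here. The groups compared, the lists and these rules were chosen with earlier results of these data known. Positions are hg38, counted from 1, with genes from GENCODE release 44. Alternatives were DESeq2 1.42.0, other scalings, filters, blocks and sample sets, and those chosen after seeing the data are named in the closing section. Library depth (22.9 M to 65.5 M counts) gave a median of 51 to 175 counts per RE, which limits the REs of low signal.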

Additional observations from a re-analysis of the deposited data

Results flagged for a closer look

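At 4 named REs 1 replicate stood apart from the other 6 by a test on the gap between the most extreme value and its neighbour. The ABLIM1 RE had a log2 difference of -3.54 in S9CC13_R14, where the others lay between -2.23 and -1.26. At the BMP7 RE the same replicate was at -1.55 and the others between -0.93 and -0.49, and at the KIAA1614 RE it was at -0.56 and the others between -0.29 and -0.16. The GAS7 RE had -0.76 in S9CC47_R5 and -0.42 to -0.25 in the others. Such a test flags about 1 in 20 groups by chance, and 64 were tested.

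The last step differed between clones at 2882 REs with a higher step in S9CC47 and 138 with a lower one (edgeR interaction of clone and dose, adjusted p under 0.05). The 2882 are mostly promoter REs of high GC content, and the 138 include 7 of the REs higher at the last step over both clones and 0 of the lower. Among the REs with the largest falls, 3 fell less in S9CC47. The difference between clones was 1.01 at GCNT1 (-2.56 in S9CC13, -1.57 in S9CC47, edgeR adjusted p = 0.025), 0.64 at SEPTIN9 (-2.09 and -1.46, adjusted p = 0.020) and 1.03 at KL (-2.25 and -1.22, adjusted p = 0.0035). All 7 replicates were below 0 at each of them, which the naming rule required. Without the replicate block the interaction called 0 REs in either direction (3155 at an unadjusted p under 0.05).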

How the results depend on the processing

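The count of lower REs, 1534, was 2754 with total counts in place of TMM, 6522 with the replicate block, 6543 with the replicate block and GC-content offsets, 4165 with all 42 SOX9-tagged samples, 3140 without batch R6 (chosen after seeing the data), 43 without batch or block, and 692 to 4801 leaving out 1 replicate. It stayed within 1.5 times under DESeq2, RLE size factors, a filter on low counts and thinning to the smallest library. The count of higher REs, 399, was 725 with DESeq2, 890 with total counts, 5791 with the replicate block, 3395 with GC-content offsets added to it, 993 with all 42 samples, 1277 without batch R6, 0 without batch or block (4138 REs of either direction at an unadjusted p under 0.05), and 97 to 3691 leaving out 1 replicate. The highest counts of both directions came without S9CC13_R6 or S9CC47_R6 (4801 and 4484 lower, 3691 and 2477 higher), after which each batch holds 1 replicate and the batch covariate is the replicate block. The lowest came without S9CC13_R13 (744 lower, 97 higher), S9CC13_R14 (692 and 168), S9CC47_R5 (924 and 101) and S9CC47_R8 (781 and 113). The share of calls that were lower was 79.4%, and 53.0% with the replicate block, 65.8% with GC-content offsets added.

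The contrast of the last step with the change before it had 1903 REs below 0 and 3015 above, 6218 and 8081 with the replicate block, 1 and 311 without batch or block, and 293 to 3076 and 1008 to 5792 leaving out 1 replicate, the fewest below 0 without S9CC47_R8 (293) and S9CC47_R5 (331). The clone interaction, 138 lower and 2882 higher, was 21 lower with DESeq2 and 0 and 0 with no replicate block. The 459 REs of WT cells were 0 with DESeq2 and 0 without batch or block (both chosen after seeing the data). The shares of REs lower at 3 h, at 24 h only and at 5 nM that were lower at the last step, 8.19%, 6.16% and 12.8%, were 9.84%, 8.21% and 15.1% with DESeq2 and 20.1%, 23.3% and 27.3% with the replicate block. The shares by SOX core and facing pair moved by less than their counting error when the whole RE was searched. Of 616 values of the 44 named REs that were called, 480 kept the call under an alternative and 136 lost it. Of 70 values of the 5 that were not called, 26 gained a call, and 0 of all values changed sign. Without batch or block 36 of the 44 calls were lost, and the 8 largest falls kept theirs. The cause of the other changes was not tested.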
